A study of Homo sapiens with 24 samples.

Results

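The 36 genes described here were enzymes of glycolysis, the glucose transporters that feed it, the kinases that hold back pyruvate oxidation, oxygen sensors and textbook targets of the hypoxia response. They were taken by name, with earlier results of these data known, and a gene's rows were the probe sets that carried its symbol and no other. All 36 were measured, among 18636 genes with 1 symbol and at least 3 exon probe sets, and they held 988 exon and 686 junction probe sets. Isoginkgetin is a biflavonoid from plants that is known to block splicing of pre-mRNA. It was given to HCT116 cells, a line from a human colorectal carcinoma, and to HCT116p53-/-, a subline that lacks p53. Each line had cells without treatment, cells with DMSO as the vehicle, and cells with isoginkgetin at 30 µM, all kept for 8 h. How many clones the subline comes from is not given in the sources used here. RNA was hybridised to the Affymetrix Human Transcriptome Array 2.0, with 2 arrays in each of 6 groups, taken from independent experiments. A set here means the 3 arrays that share a line and a replicate number, which gives 4 sets, and levels are mean log2 values of a gene's exon probe sets.

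Glycolysis breaks glucose down to pyruvate. Glucose enters through the GLUT transporters, is trapped by hexokinase, and passes the main control point at phosphofructokinase, which fructose-2,6-bisphosphate stimulates. Pyruvate is then reduced to lactate or enters the mitochondrion, where pyruvate dehydrogenase kinases brake its oxidation. When oxygen is short, prolyl hydroxylases no longer mark HIF-1α for destruction, and HIF-1 raises transcription of most genes of this pathway. Many carcinoma lines run glycolysis at a high rate in normal oxygen.

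The arrays labelled HCT116 replicate 1 stood apart from the other 3 sets. All 7 epithelial markers were low there: EPCAM lay at 4.61 to 4.63 against 11.93 to 12.30 on the other 9 arrays, and KRT8 at 5.72 to 5.89 against 13.85 to 14.46. All 5 fibroblast markers were higher there, with VIM at 12.52 to 12.62 against 3.07 to 3.69, while the 3 endothelial and 3 blood markers measured did not exceed 4.16 and 4.93 anywhere. Over all genes the mean levels of this set correlated with those of the others at 0.881 to 0.885, and those of the others with each other at 0.990 to 0.996. Which cells these arrays hold was not tested, so values are given with and without them. The p53 targets CDKN1A and MDM2 were lower in DMSO in both p53-null sets (6.97 and 7.53, 10.74 and 10.88) than in both HCT116 sets (7.91 and 8.34, 11.53 and 11.96). In bulk RNA, fewer cells with a transcript and less transcript per cell cannot be told apart.

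The promoter windows of HK2, SLC2A1 and PFKFB3, whose responses are described most fully, are shown with the letters ACGTG or GCGTG, the core of a hypoxia response element, in capitals wherever they occur on either strand (CACGT and CACGC are the same motifs read on the other strand, and CACGTG holds ACGTG on both). The windows run from 250 bases before a RefSeq transcript start to 50 after it, on GRCh38.p14, and are printed 5′ to 3′ on the gene's strand.
HK2 at chr2:74833877-74834176, plus strand: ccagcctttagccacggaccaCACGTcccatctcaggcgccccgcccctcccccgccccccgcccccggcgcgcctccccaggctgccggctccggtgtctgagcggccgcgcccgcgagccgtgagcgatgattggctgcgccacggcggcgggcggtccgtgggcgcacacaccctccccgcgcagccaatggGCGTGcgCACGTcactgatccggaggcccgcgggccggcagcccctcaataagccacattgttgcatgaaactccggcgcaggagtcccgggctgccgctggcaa
HK2 at chr2:74834920-74835219, plus strand: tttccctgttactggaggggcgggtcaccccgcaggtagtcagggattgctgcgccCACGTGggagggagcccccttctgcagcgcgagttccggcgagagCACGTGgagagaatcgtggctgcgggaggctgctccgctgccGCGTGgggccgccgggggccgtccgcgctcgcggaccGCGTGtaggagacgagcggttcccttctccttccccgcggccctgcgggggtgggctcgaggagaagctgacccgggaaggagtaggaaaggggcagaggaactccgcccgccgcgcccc
SLC2A1 at chr1:42958819-42959118, minus strand: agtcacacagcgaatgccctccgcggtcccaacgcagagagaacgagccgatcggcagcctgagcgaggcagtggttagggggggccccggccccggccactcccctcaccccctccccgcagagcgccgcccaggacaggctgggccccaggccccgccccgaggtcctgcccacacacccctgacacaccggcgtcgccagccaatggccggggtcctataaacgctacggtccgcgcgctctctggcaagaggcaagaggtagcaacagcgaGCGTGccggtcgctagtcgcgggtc
PFKFB3 at chr10:6144671-6144970, plus strand: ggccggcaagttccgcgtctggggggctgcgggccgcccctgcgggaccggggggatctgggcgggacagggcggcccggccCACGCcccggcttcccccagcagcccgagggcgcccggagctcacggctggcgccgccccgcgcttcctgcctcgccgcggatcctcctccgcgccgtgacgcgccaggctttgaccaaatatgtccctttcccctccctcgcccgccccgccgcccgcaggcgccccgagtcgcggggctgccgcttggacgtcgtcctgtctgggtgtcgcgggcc
PFKFB3 at chr10:6202682-6202981, plus strand: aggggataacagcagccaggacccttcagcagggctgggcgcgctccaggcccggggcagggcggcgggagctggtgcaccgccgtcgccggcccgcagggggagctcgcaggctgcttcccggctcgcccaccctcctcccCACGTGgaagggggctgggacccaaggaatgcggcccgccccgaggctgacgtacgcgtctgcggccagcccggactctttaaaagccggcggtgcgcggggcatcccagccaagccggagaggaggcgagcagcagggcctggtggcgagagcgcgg
Counting each strand, the HK2 windows held 3 and 6 matches, the SLC2A1 window 1, and the PFKFB3 windows 1 and 2. Windows were found for 31 of the 36 genes. Of their 57 windows, 37 held a match (64.9%), as did 17012 of 35116 windows of all genes (48.4%). A match is a description of these letters and not a site of binding.

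Of the 36 genes, isoginkgetin changed 2 in HCT116, both downward: HK2 and PFKFB3. At an adjusted p under 0.05 (limma with the set as a block, Benjamini-Hochberg over all genes) 3.72% of all genes were called there, and the 2 genes are 5.56% of the 36. HK2 was included with its opposite movement in the lines known, so its call is not an independent test. The rest of the 36, PFKFB3 among them, were also chosen with earlier results of these data known. None of the 36 was called in p53-null cells, where 0.397% of all genes were. None was called over all sets together (3.02%) or for the difference between the lines (0%). At an unadjusted p under 0.05 the same 4 comparisons held 11, 5, 12 and 10 of the 36. Among all 18636 genes they held 4749, 2180, 3981 and 2433. The median response of the 36 was −0.0113 log2 in HCT116, against 0.0102 for all genes. In p53-null cells it was −0.0045, against 0.0051 for all genes. In 20 of the 36 genes the response stayed within 0.25 log2, a 1.189-fold change, in every set. The matching share of all genes was not computed, so this count is not read as unusual. At least 0.25 log2 in either direction was reached by 5 and 10 of the 36 in the HCT116 sets. Of all genes, 10.1% and 14.4% reached it there. In the p53-null sets 3 and 7 of the 36 did, against 6.28% and 3.4% of all genes. DMSO against untreated gave no call among the 36 or among all genes (0%), with 0 of the 36 at an unadjusted p under 0.05 (429 of 18636 genes).

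Without the arrays labelled HCT116 replicate 1 the calls were more. In HCT116, where the spread of the remaining set had to be taken from the p53-null sets, 8 of the 36 were called (13.8% of all genes). HK1, HK2, PFKFB3, PFKFB4, TPI1, PGAM1 and EGLN1 fell and PDK4 rose. In p53-null cells 1 gene, SLC2A1, was called (2.38% of all genes), and the difference between the lines was called for SLC2A1, HK2, PFKFB3 and PGAM1, each more positive in p53-null cells (5.94% of all genes); HK2 was included for that pattern, so its call is no test. Over the 3 sets together none was called (2.45%). In a limma fit that ignores which arrays share a set, no gene at all was called in any of these drug comparisons (0% each), and 13 to 29 genes of 18636 in the responses and 0 in the difference had an unadjusted p under 0.05. With the unpaired test that the authors' methods describe, run gene by gene, the calls were none of the 36 in these comparisons and 1 gene of 18636 in the difference.

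**Figure D1:**
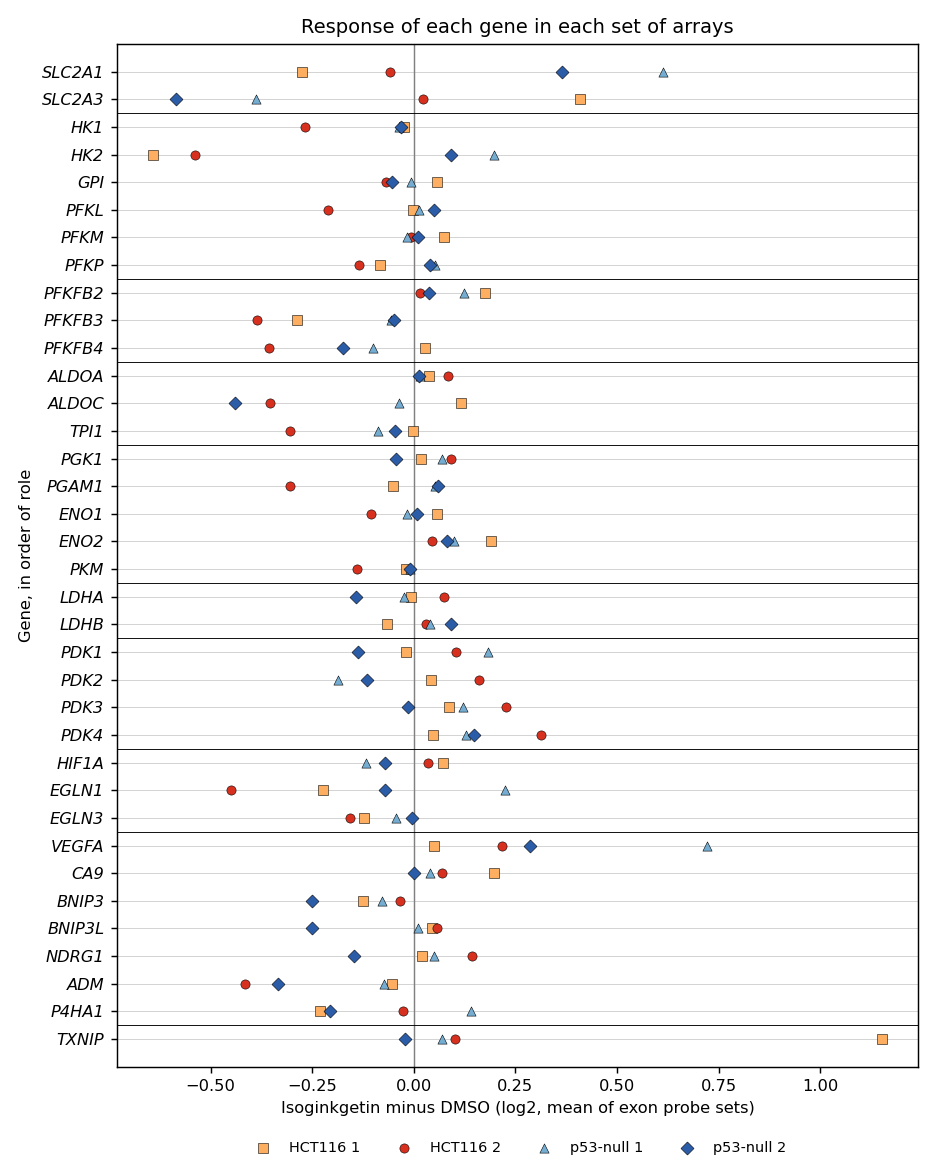
Isoginkgetin minus DMSO (log2, horizontal axis) for each of the 36 genes in order of role, 1 point for each of the 4 sets; HCT116 1 is the set labelled HCT116 replicate 1. HK2 lies at −0.64 and −0.54 in the HCT116 sets and at 0.20 and 0.09 in the p53-null sets, and TXNIP at 1.15 in 1 set.

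Hexokinase 2, the inducible hexokinase of tumour cells, moved in opposite directions in the lines. It was included among the 36 with this pattern already known, so that the pattern is a description and the tests of its fall are not independent of that choice. In the order untreated, DMSO, isoginkgetin, HK2 stood at 8.36, 8.21 and 7.57 in the first HCT116 set and at 8.61, 8.69 and 8.16 in the second. It stood at 7.72, 7.80 and 8.00 in the first p53-null set and at 8.27, 8.26 and 8.35 in the second. In each HCT116 set the drug array was the lowest of the 3, and in each p53-null set it was the highest. The mean response in HCT116 was −0.59 ± 0.07 (SD, n = 2 sets; SE 0.08), a 1.51-fold fall with an adjusted p of 0.022 from limma. With a single HCT116 set the fall was −0.64 (the set labelled replicate 1) or −0.54. Those fits take the spread from the p53-null sets, so they do not measure the spread between HCT116 sets. The fall was not called without the first or the second p53-null set, where the spread came from the HCT116 sets alone. Without the block it was not called either (limma, adjusted p 1). In p53-null cells the mean was 0.14 ± 0.07 (n = 2 sets; adjusted p 0.60). The responses of the lines differed by 0.73 (SE 0.12).

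The single probe sets of HK2 show how widely the gene carried this pattern. Of its 28 exon probe sets, 26 were lower with isoginkgetin, 2 equal and none higher in the first HCT116 set, and 22 were lower, 4 equal and 2 higher in the second. In the p53-null sets 17 and 15 of the 28 were higher and 3 and 8 lower. The 20 junction probe sets had mean responses of −0.64 and −0.88 in the HCT116 sets, and of 0.24 and −0.08 in the p53-null sets, so that the junctions of the second p53-null set did not share the sign of its exons. The fall of the junction mean in HCT116 was −0.76 (limma, adjusted p 0.046). No single probe set of the 36 genes was called, for the response in either line, the difference or all sets together (0%, 0%, 0% and 0.000298% of 672085 probe sets; 0.000149% over all sets without the first HCT116 set).

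**Figure D2:**
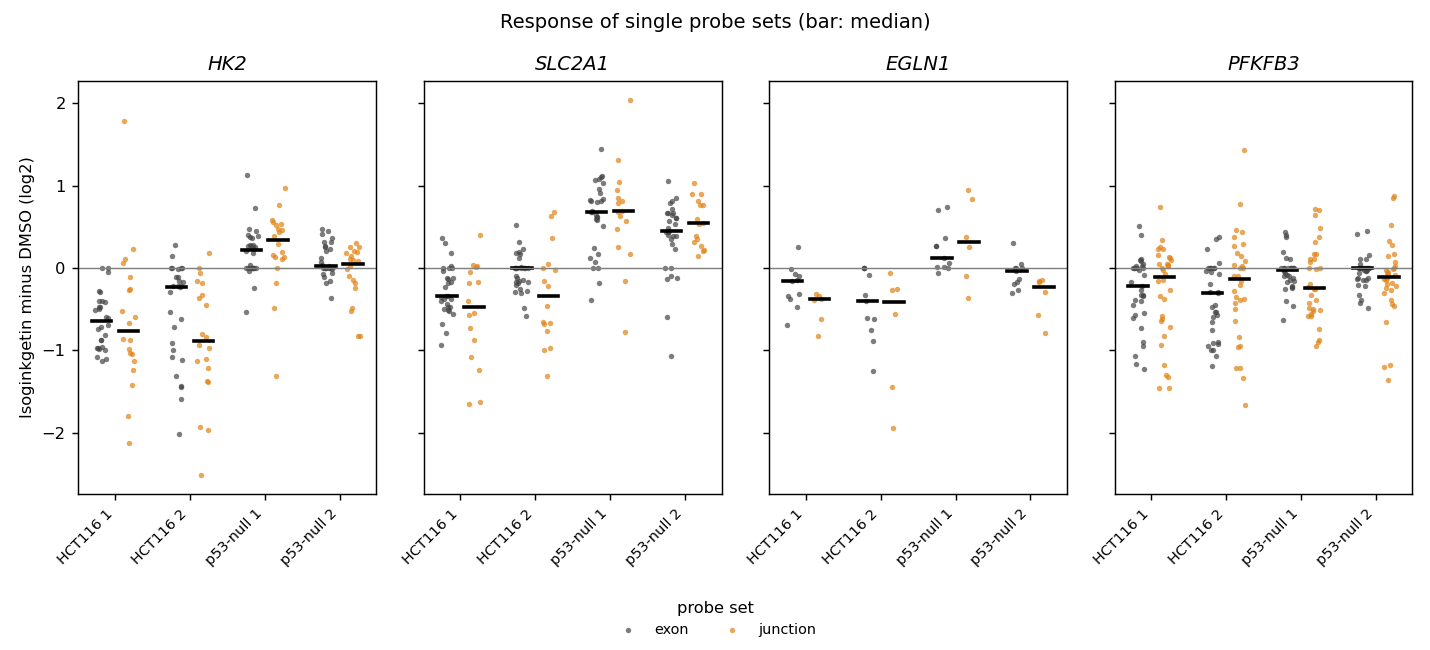
Isoginkgetin minus DMSO (log2, vertical axis) of each exon (grey) and junction (orange) probe set of 4 genes in each set, with bars at the medians. The HK2 points lie mostly below 0 in the HCT116 sets, and those of SLC2A1 mostly above 0 in the p53-null sets.

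HK1, the constitutive hexokinase, differed from HK2. It stood at 8.39, 8.38 and 8.35, and at 7.86, 7.91 and 7.64, in the HCT116 sets, and at 7.03, 7.02 and 6.98, and 7.51, 7.51 and 7.48, in the p53-null sets. Its response was −0.02, −0.27, −0.04 and −0.03, so that only the second HCT116 set moved beyond 0.05, and HK1 was called only with that set as the sole HCT116 set (adjusted p 0.020, limma).

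SLC2A1 encodes GLUT1, the main glucose transporter of most tumour cells. Untreated, in DMSO and with isoginkgetin it stood at 9.41, 9.45 and 9.18, and at 9.27, 9.29 and 9.23, in the HCT116 sets. In the p53-null sets it stood at 11.42, 11.16 and 11.77, and at 11.73, 11.53 and 11.90. The 6 p53-null arrays lay above all 6 HCT116 arrays, and the drug array was the highest of its set in both p53-null sets and the lowest in both HCT116 sets. The response was 0.61 and 0.37 in the p53-null sets, a mean of 0.49 ± 0.18 (SE 0.07, 1.40-fold; adjusted p 0.055), and −0.27 and −0.06 in the HCT116 sets (mean −0.17 ± 0.15; adjusted p 0.21). DMSO arrays lay below untreated ones by 0.26 and 0.19 in the p53-null sets, so that against untreated the responses were 0.35 and 0.17. The mean response against untreated was 0.26, with an adjusted p of 0.24 (limma). The p53-null rise was called without the first HCT116 set and without the second, at the same 0.49. For p53-null cells these fits are the same, as the spread then comes from the p53-null sets alone, so they are not separate checks. The rise was also called among genes at 5 log2 or more (adjusted p 0.041, limma). It was not called without the first or the second p53-null set (adjusted p 1 and 0.48), without the block (1), in the gene-level table (0.71) or with the median of the exon probe sets (0.28).

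The difference of the SLC2A1 responses between the lines was 0.66 (SE 0.10), with an adjusted p of 0.15 over all sets, 0.046 without the first HCT116 set and 0.042 without the second (limma). Of its 30 exon probe sets, 26 and 23 were higher with isoginkgetin in the p53-null sets, and 4 and 8 in the HCT116 sets. Of its 16 junction probe sets, 14 and 16 were higher in the p53-null sets. Exons and junctions thus gave the same direction in each set: the junction means were −0.54, −0.33, 0.65 and 0.55.

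SLC2A3 encodes GLUT3, a high-affinity glucose transporter best known from neurons. It stood at 9.85, 9.86 and 10.27 in the first HCT116 set and at 4.16, 4.18 and 4.21 in the second. In the p53-null sets it stood at 6.92, 6.88 and 6.49, and at 7.11, 6.76 and 6.17. The response was 0.41 and 0.02 in the HCT116 sets and −0.39 and −0.59 in the p53-null sets, where the mean was −0.49 ± 0.14 (adjusted p 0.19). The 2 p53-null drug arrays were the lowest of their sets, and the signs of the exon means were opposite to those of SLC2A1 in all 4 sets. In the second HCT116 set, where SLC2A3 was dim, this rests on a response of 0.02. There 9 of its 24 exon probe sets were higher, 6 lower and 9 equal. Its junction mean in that set was −0.15, the same sign as that of SLC2A1 (−0.33). The difference between the lines was −0.70 (adjusted p 0.23; −0.51 and 0.20 without the first HCT116 set). SLC2A14, a near-identical neighbour, had responses of 0.26, 0.12, −0.23 and −0.41, and probes of the pair may not tell their transcripts apart.

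**Figure D3:**
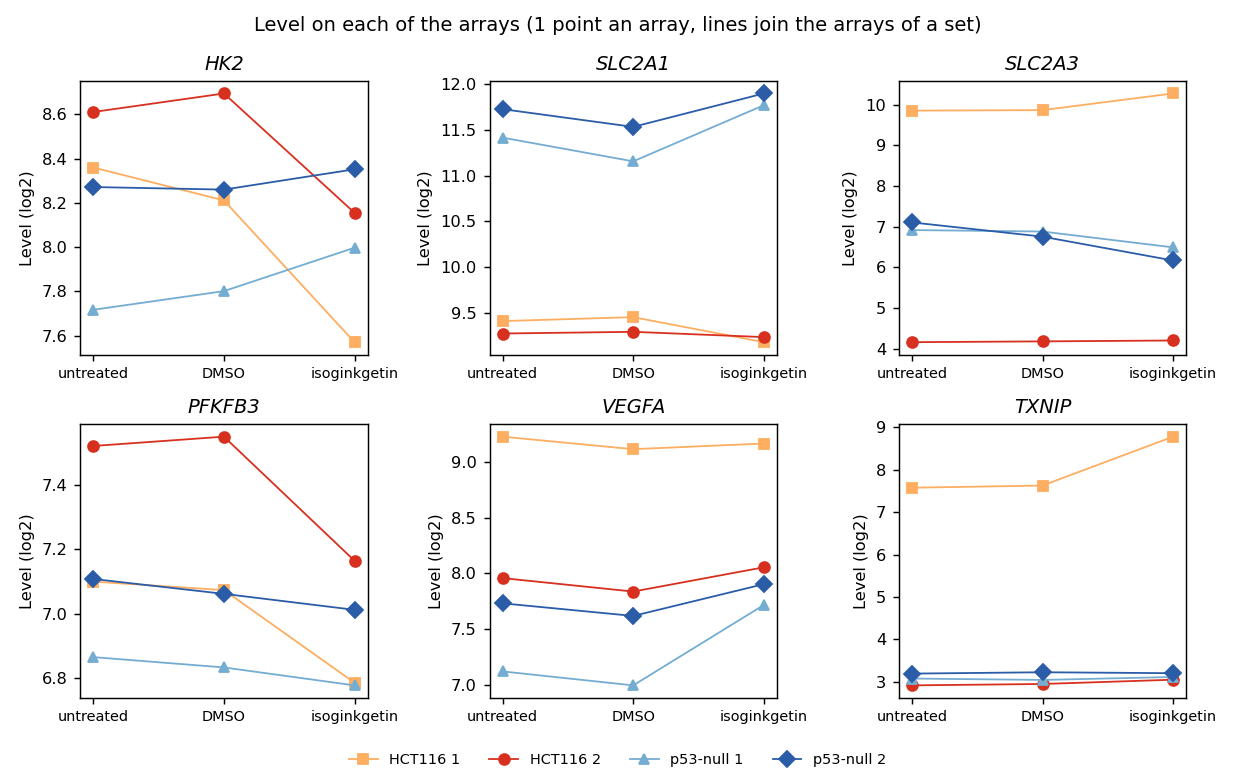
Level (log2, vertical axis, which does not start at 0) of 6 genes on the untreated, DMSO and isoginkgetin array of each set, joined by lines. HK2 and SLC2A1 go down in the HCT116 sets and up in the p53-null sets, and the TXNIP level of 7.58 to 8.78 in the first HCT116 set stands far above the other sets.

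The bifunctional PFKFB enzymes make and remove fructose-2,6-bisphosphate, the activator of phosphofructokinase. PFKFB3, the isoform with the strongest kinase activity, stood at 7.10, 7.07 and 6.78, and at 7.52, 7.55 and 7.16, in the HCT116 sets. In the p53-null sets it stood at 6.86, 6.83 and 6.78, and at 7.11, 7.06 and 7.01. The drug array was the lowest in all 4 sets, by more in HCT116. The response there was −0.29 and −0.39, a mean of −0.34 ± 0.07 (SE 0.04, a 1.26-fold fall; adjusted p 0.017 from limma), against −0.06 and −0.05 in p53-null cells (mean −0.05; adjusted p 0.71). With a single HCT116 set the fall was −0.29 or −0.39, with the spread again taken from the p53-null sets. As for HK2, there was no call when a p53-null set or the block was left out. The difference between the lines was 0.28 (adjusted p 0.16; 0.33 and 0.035 without the first HCT116 set). Of the 33 exon probe sets, 20 and 23 were lower in the HCT116 sets and 17 in each p53-null set. The junction means were lower in all 4 sets (−0.31, −0.23, −0.17 and −0.14), and the junction fall in HCT116 was not called (adjusted p 0.14).

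PFKFB4 stood at 5.92, 6.01 and 6.04 in the first HCT116 set and at 5.61, 5.67 and 5.31 in the second, and at 5.14, 5.13 and 5.03, and 5.92, 5.90 and 5.72, in the p53-null sets. The first HCT116 set moved the other way (0.03) from the rest (−0.36, −0.10 and −0.17), and the gene was called only with the second HCT116 set alone (adjusted p 0.013, limma). PFKFB2, the isoform best known from heart, had responses of 0.02 to 0.17. The phosphofructokinase subunits themselves moved less: PFKL, PFKM and PFKP had responses between −0.21 and 0.07 in every set, and none was called. PFKP, the platelet subunit, was distinct in level, at 7.44 to 7.52 on the arrays labelled HCT116 replicate 1 and at 10.13 to 10.50 on the other 9.

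The enzymes of the main chain moved little. GPI, ALDOA, PGK1, ENO1, ENO2 and PKM had responses between −0.14 and 0.19 in every set, and none was called. TPI1, which interconverts the triose phosphates, stood at 9.85, 9.88 and 9.88 in the first HCT116 set and at 9.75, 9.81 and 9.51 in the second, and at 10.10, 10.18 and 10.09, and 10.45, 10.45 and 10.40, in the p53-null sets. PGAM1, the mutase that makes 2-phosphoglycerate, stood at 11.89, 11.91 and 11.86, and at 11.52, 11.52 and 11.21, in the HCT116 sets, and at 11.41, 11.32 and 11.38, and 11.58, 11.43 and 11.49, in the p53-null sets. Both were low with the drug mainly in the second HCT116 set (−0.31 and −0.30), and with that set alone the falls were called (adjusted p 0.018 and 0.017, limma). With both HCT116 sets they were not (adjusted p 0.23 and 0.17). Several of these genes have processed pseudogenes whose transcripts the same probes may detect, so that levels of ALDOA, PGK1, PGAM1, ENO1, TPI1 and LDHA are uncertain to that extent, and so are those of HK2 and BNIP3.

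ALDOC, the brain aldolase and a hypoxia target, varied most among the aldolases. It stood at 6.84, 6.94 and 7.06, and at 8.04, 8.02 and 7.66, in the HCT116 sets, and at 6.08, 6.02 and 5.99, and 7.54, 7.62 and 7.18, in the p53-null sets. The 2 sets with replicate number 2 lay higher and had the larger drops (−0.35 and −0.44), against 0.12 and −0.04 in the others, and no response was called.

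No response of the lactate dehydrogenase genes passed the test. LDHA, the muscle-type subunit that favours lactate, stood at 12.00, 12.04 and 12.04, and at 11.97, 11.88 and 11.95, in the HCT116 sets, and at 12.17, 12.18 and 12.16, and 12.13, 12.12 and 11.98, in the p53-null sets. Its responses were −0.01, 0.07, −0.02 and −0.14 (adjusted p 0.71 in HCT116 and 0.64 in p53-null cells, limma). LDHB, the heart-type subunit, had responses of −0.07, 0.03, 0.04 and 0.09.

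The pyruvate dehydrogenase kinases divert pyruvate from the mitochondrion. PDK4, the isoform induced by fasting, was dim, with 3 of its 23 exon probe sets and 2 of its 15 junction probe sets at 5 log2 or more. Its exon mean stood at 3.83, 3.85 and 3.90, and at 3.93, 4.08 and 4.40, in the HCT116 sets, and at 3.53, 3.57 and 3.70, and 3.85, 3.86 and 4.01, in the p53-null sets. The drug array was the highest of its set in all 4 sets, by 0.05, 0.31, 0.13 and 0.15 over DMSO. The rise was called with the second HCT116 set alone (adjusted p 0.013, limma) and not with both (0.18 ± 0.19, adjusted p 0.22). Its junction probe sets read separately did not share a direction: their mean changed by −0.14 and 1.05 in the HCT116 sets and by −0.24 and 0.54 in the p53-null sets.

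PDK3 stood at 7.63, 7.65 and 7.74, and at 7.93, 7.91 and 8.14, in the HCT116 sets, and at 6.88, 6.78 and 6.90, and 6.96, 7.05 and 7.04, in the p53-null sets. Its exon responses were 0.09, 0.23, 0.12 and −0.01, and its junction means moved by 0.51, 0.60, 0.36 and −0.02. The 3 sets with higher junctions thus had smaller exon differences, and none of these was called. PDK1, the classic hypoxia-induced isoform, had responses of −0.02, 0.10, 0.18 and −0.14, and PDK2 of 0.04, 0.16, −0.19 and −0.12.

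HIF1A and its hydroxylases sense oxygen. HIF1A encodes the oxygen-labile subunit of HIF-1, whose control is mostly on the protein, which these arrays do not measure. Its RNA stood at 13.21, 13.16 and 13.23, and at 12.78, 12.82 and 12.86, in the HCT116 sets, and at 13.28, 13.26 and 13.15, and 13.11, 13.02 and 12.95, in the p53-null sets. The responses were 0.07 and 0.04 in HCT116 and −0.12 and −0.07 in p53-null cells, with a difference of −0.15 (adjusted p 0.35, limma). The lines were thus on opposite sides of 0 in the exon means, by at most 0.12. The junction mean of the first p53-null set moved the other way, by 0.17.

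EGLN1, the prolyl hydroxylase PHD2 that marks HIF-1α, stood at 10.17, 10.24 and 10.02, and at 9.09, 9.10 and 8.65, in the HCT116 sets, and at 8.81, 8.61 and 8.84, and 9.48, 9.44 and 9.37, in the p53-null sets. The drug array was the lowest in both HCT116 sets, and the p53-null sets did not share a sign (0.23 and −0.07). The HCT116 mean was −0.34 ± 0.16 (adjusted p 0.079) and was called with the second set alone, at −0.45 (adjusted p 0.036, limma). Of its 11 exon probe sets, 10 and 8 were lower in the HCT116 sets. EGLN3, the hydroxylase PHD3 and itself a hypoxia target, had responses of −0.12, −0.16, −0.04 and −0.00 at levels of 3.45 to 5.45.

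Hypoxia targets outside glycolysis showed no common direction. VEGFA, the angiogenic growth factor, stood at 9.23, 9.12 and 9.17, and at 7.96, 7.84 and 8.05, in the HCT116 sets, and at 7.12, 6.99 and 7.72, and 7.73, 7.62 and 7.90, in the p53-null sets. The drug array was above DMSO in all 4 sets, and DMSO was below untreated in all 4, by 0.11 to 0.13. In p53-null cells the response was 0.72 and 0.29, a mean of 0.50 ± 0.31 (adjusted p 0.12, limma), and in HCT116 it was 0.05 and 0.22. Of the 35 exon probe sets of VEGFA, 31 and 24 were higher in the p53-null sets and 26 in the second HCT116 set. In the first HCT116 set 13 were higher and 17 lower, and its junction mean was lower, at −0.18, with 13 of 17 junction probe sets lower. ADM, the vasodilator adrenomedullin, was lower in all 4 sets (−0.05, −0.42, −0.07 and −0.34), as was BNIP3, a mitophagy receptor (−0.12, −0.03, −0.08 and −0.25). CA9, the surface carbonic anhydrase, lay at 2.99 to 3.68 on all arrays and had responses of 0.00 to 0.20. BNIP3L, NDRG1 and P4HA1 had responses between −0.25 and 0.14, and no gene of this group was called.

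TXNIP, an inhibitor of thioredoxin and of glucose uptake that high glucose induces, was bright in 1 set only. In the first HCT116 set it stood at 7.58, 7.63 and 8.78, and in the second at 2.92, 2.95 and 3.05. In the p53-null sets it stood at 3.08, 3.05 and 3.12, and at 3.20, 3.23 and 3.21. The response of 1.15 came from the arrays that lack the epithelial markers, and the other sets gave 0.10, 0.07 and −0.02. With both HCT116 sets the mean was 0.63 ± 0.74 (adjusted p 0.16), with the first alone it was called (adjusted p 0.0022, limma), and with the second alone it was 0.10 (adjusted p 0.29).

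Signs of isoginkgetin minus DMSO in the exon means of the 4 sets sum up these patterns. PFKFB2, ALDOA, ENO2, PDK4, VEGFA and CA9 were higher with isoginkgetin in every set (6 genes, 16.7% of the 36, against 14.2% of all genes). HK1, PFKFB3, TPI1, PKM, EGLN3, BNIP3 and ADM were lower in every set (7 genes, 19.4% against 12.5%). SLC2A1, HK2, PFKL, PFKP and PGAM1 were lower in both HCT116 sets and higher in both p53-null sets (5 genes, 13.9% against 6.48%). SLC2A3, PDK2 and HIF1A did the reverse (3 genes, 8.33% against 6.55%). HK2 was included with this pattern known and counts toward the 13.9% by that choice. Against untreated arrays PFKL, PFKP, PGAM1 and PDK2 did not keep these opposite signs. Nor did PFKFB2, ENO2, VEGFA, CA9 and TPI1 keep a common sign against untreated arrays. The junction means kept the signs of the exon means only for PFKFB2, ALDOA, PFKFB3, BNIP3, SLC2A1, PFKL, PFKP and PGAM1. Among the genes of all these patterns, PFKFB2, ALDOA, ENO2, CA9, PKM, EGLN3, PFKL, PFKP, PDK2 and HIF1A stayed within 0.25 log2 in every set. In the 3 sets other than HCT116 replicate 1, 7 genes were higher (19.4% against 21.1% of all genes) and 10 lower (27.8% against 17.6%).

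In DMSO, 4 arrays in all, none of the 36 genes was called between the lines (0.00537% of all genes, limma). At an unadjusted p under 0.05 there were 3 of the 36 (501 of 18636 genes), namely SLC2A1, NDRG1 and EGLN3. The NDRG1 difference of 2.44 was 0.59 without the first HCT116 set. SLC2A1 was 1.97 log2 higher in p53-null cells (SE 0.45; adjusted p 0.98). Without the first HCT116 set 4 of the 36 were called (2.48% of all genes), each resting on 1 HCT116 array, and limma gave every gene the same SE of 0.30. With a shared SE the p-values do not reflect the spread of each gene, so only the sizes are given. SLC2A1 was then 2.05 higher (4.15-fold), and SLC2A3 2.63 higher (6.21-fold). ALDOC was 1.19 lower and PDK3 1.00 lower, in p53-null cells. The p53-null DMSO arrays of ALDOC stood at 6.02 and 7.62, against 8.02 on the HCT116 array. They lay further apart than the difference between the lines, so ALDOC is not read as a difference of the lines. For SLC2A1, SLC2A3 and PDK3 the p53-null DMSO arrays lay closer together than the difference. The SLC2A3 difference turned sign with the set: it was −0.20 over all 4 arrays and −3.04 without the second HCT116 set. With that set left out, the differences included NDRG1 (4.29), PFKP (2.75), TXNIP (−4.49), VEGFA (−1.81) and PDK1 (−1.74). These differences set the array without epithelial markers against the p53-null arrays.

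**Figure D4:**
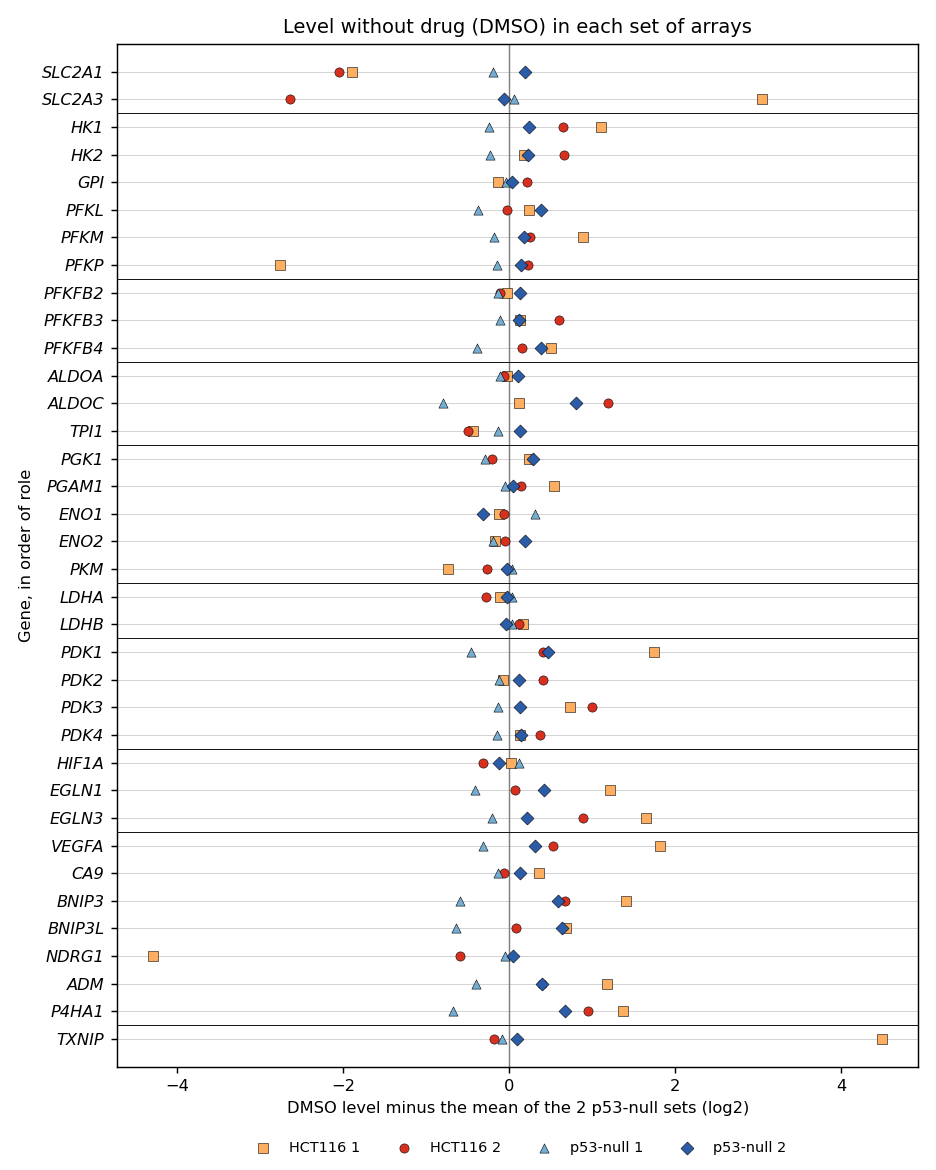
DMSO level of each gene in each set minus the mean of the 2 p53-null sets (log2, horizontal axis). SLC2A1 lies about as low in both HCT116 sets, while SLC2A3, NDRG1, PFKP and TXNIP lie far apart between the HCT116 sets.

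Other genes of the pathway were read from lists, which were also chosen with earlier results of these data known. Of 19 measured genes of glycolysis and gluconeogenesis outside the 36, none was called in a response over all sets (3 at an unadjusted p under 0.05), and of 14 genes of pyruvate and lactate handling none (2). In the fit over all sets 3.02% of all genes were called, and 3981 of 18636 had an unadjusted p under 0.05. Of 9 genes of the HIF pathway 2 fell there: ARNT, the partner of HIF-1α, with a change of −0.19 (adjusted p 0.029), and HIF1AN, the asparaginyl hydroxylase of HIF-1α, with −0.23 (adjusted p 0.049, limma). HIF1AN also fell in HCT116 alone, with −0.32 (adjusted p 0.043; 3.72% of all genes called). Without the first HCT116 set neither was called over the remaining sets (adjusted p 0.057 for ARNT and 0.12 for HIF1AN, limma), nor HIF1AN in HCT116 (−0.26, adjusted p 0.10). CREBBP, a coactivator of HIF-1, was then called over the remaining sets (−0.22, adjusted p 0.041). Of 28 further hypoxia targets 2 rose and 1 fell over all sets. ANGPTL4, a secreted inhibitor of lipoprotein lipase, rose by 0.32 (0.06, 0.35, 0.38 and 0.50 in the sets; adjusted p 0.034), and CXCR4, a chemokine receptor, by 0.24 (adjusted p 0.038). WSB1, a ubiquitin ligase adaptor, fell by 0.36 (−0.12, −0.54, −0.31 and −0.45; adjusted p 0.026). All 3 of these hypoxia targets were also called without the first HCT116 set.

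Among 10 genes of the thioredoxin and glucose-sensing list, MLXIP, which encodes the glucose-responsive factor MondoA, fell in HCT116 with a change of −0.45 (−0.39 and −0.50; adjusted p 0.022, limma), against −0.20 and −0.15 in the p53-null sets. MLX, its dimerisation partner, was not called. With the second HCT116 set alone, a fit that called 13.8% of all genes, 1 gene rose and 2 fell of the 10 in this list, as of the 19 of glycolysis and gluconeogenesis and of the 14 of pyruvate and lactate handling. There 2 rose and 2 fell of the 28 hypoxia targets, 1 of 8 glycogen genes fell, and 0 of 9 HIF pathway genes were called. TXN2, the mitochondrial thioredoxin, fell by 1.15 with that set (adjusted p 0.00081, limma), against −0.29 in the first. Falls were also called there for DLAT, a subunit of the pyruvate dehydrogenase complex (−0.46, adjusted p 0.0047), ADPGK, an ADP-dependent glucokinase (−0.62, adjusted p 0.0053), and PYGB, the brain glycogen phosphorylase (−0.34, adjusted p 0.010). PCK2, the mitochondrial PEP carboxykinase, rose by 0.88 there (adjusted p 0.012). None of the 8 other hexose transporters was called for a response in either line, over all sets or without the first HCT116 set.

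The authors' gene-level values showed fewer differences. Among their rows, 78.9% to 90.1% held exactly the same value in isoginkgetin and DMSO arrays of a set, as did 13 of the 35 listed genes in all 4 sets. HK2 stood at 8.90 in DMSO and 8.33 with isoginkgetin, and at 9.31 and 9.01, in the HCT116 sets, and at 8.49 and 8.52, and 8.76 and 8.76, in the p53-null sets. SLC2A1 stood at 10.92 and 10.76, and at 11.30 and 11.30, in the HCT116 sets, and at 13.76 and 14.40, and 14.38 and 14.75, in the p53-null sets. The sign of the HK2 fall in both HCT116 sets and of the SLC2A1 difference in both p53-null sets was the same in both tables. Exon probe sets were equal less often, in 26.9% to 32.7% of rows, and in 22.0% to 24.7% of those of the 36 genes. How these equal values arose was not tested.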

How the data were processed

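Per the labels, RNA was taken with a column kit, and its cDNA was labelled with biotin and hybridised, and the design text says that the replicates came from independent experiments. Transcriptome Analysis Console 4.0 was run at its defaults by the authors, per the submitters' processing notes and the design text, and they deposited log2 values for 573909 exon and 339146 junction probe sets and for genes. The background correction within these settings is not given in the sources used here. Arrays have no read depth, and their number limits the precision. No further scaling was applied to the deposited log2 values.

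A gene's level is the mean of its exon probe sets, where at least 3 carry its symbol alone, and 39483 rows with several symbols were not used. Drug responses were tested with limma 3.58.1 in R 4.3.3 on all 12 arrays with the set as a block, and lines on the 4 DMSO arrays, with Benjamini-Hochberg adjustment over 18636 genes. Arrays of the same line and number deviated together from group means (correlations of 0.903 to 0.997 over 12 pairs), while equal numbers in different lines gave 0.0684 to 0.108 over 18 pairs. Without HCT116 replicate 1, the spread of the lone HCT116 set was taken from the p53-null sets. Scripts were first tested on simulated data.

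The members and lists were chosen with earlier results of these data known. Values on each array are given for genes called in a comparison with all sets or without HCT116 replicate 1, and for HK2, PDK4, SLC2A1, SLC2A3, LDHA, VEGFA, HIF1A and TXNIP in any case; up to 4 called genes of a list are named. Promoter windows are from RefSeq. Alternatives covered the block, the summary of probe sets, filters on dim values, scaling, the control, the gene-level table, junction probe sets and each set left out. The level of the deleted gene is not reported here.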

Additional observations from a re-analysis of the deposited data

Results flagged for a closer look

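With isoginkgetin against DMSO, the exon means of 8 of the 36 genes moved in a single direction in each line, and the direction was opposite between the lines. The junction means kept this pattern for SLC2A1, PFKL, PFKP and PGAM1 only. They broke it for HK2 (−0.08 in the second p53-null set) and SLC2A3 (−0.15 in the second HCT116 set). They also broke it for PDK2 (−0.18 in the first HCT116 set) and HIF1A (0.17 in the first p53-null set). The exon values follow. The response in p53-null cells minus that in HCT116 was 0.66 for SLC2A1, 0.73 for HK2, 0.14 for PFKL, 0.15 for PFKP and 0.23 for PGAM1. It was −0.70 for SLC2A3, −0.25 for PDK2 and −0.15 for HIF1A. HK2 was included with this pattern known, so its difference is given without a test. The other genes were also chosen with earlier results of these data known, so their tests are not fully independent of that choice. The interaction term of limma tested the others, and with all sets none was called: the adjusted p was 0.15 for SLC2A1, 0.53 for PFKL, 0.27 for PFKP and PDK2, 0.38 for PGAM1, 0.23 for SLC2A3 and 0.35 for HIF1A. Without the arrays labelled HCT116 replicate 1, SLC2A1 and PGAM1 were called. Of all genes, 6.48% went down in both HCT116 sets and up in both p53-null sets, and 6.55% the reverse. Against untreated arrays PGAM1, PFKP, PFKL and PDK2 did not keep the opposite signs. PGAM1 was −0.03 and −0.31 in the HCT116 sets and −0.03 and −0.09 in the p53-null sets. PFKP was −0.09 and −0.12, and −0.003 and −0.005, in the same order. PFKL was −0.10 in the first p53-null set, and PDK2 was −0.01 in the first HCT116 set.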

How the results depend on the processing

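Counts of called genes among the 36 depended on the fit. In HCT116 the 2 calls became 0 with no replicate block, with the plain unpaired test of the methods, with the median of exon probe sets, with the gene-level table and with only DMSO and isoginkgetin arrays, 1 with junction means (chosen after seeing the data) and 5 with arrays centred on their median. Over all genes the main fit called 693, and these alternatives called 0, 0, 160, 91, 0, 115 and 1450, in the same order. In p53-null cells the count of 0 became 1 with only exon probe sets at 5 log2 or more and with only genes at 5 log2 or more. Over all genes these 2 fits called 72 and 119, against 74 in the main fit. Leaving out 1 set at a time gave 0 to 1 calls in p53-null cells, 0 to 8 in HCT116, 0 to 4 for the difference between the lines and 0 to 17 for the lines in DMSO. The responses over all sets, DMSO against untreated and single probe sets gave 0 under every alternative run. The difference of SLC2A3 between the lines in DMSO turned from −0.20 to 2.63 without HCT116 replicate 1, and was −3.04 without HCT116 replicate 2. The fall of HK2 in HCT116 ranged from −0.76 to −0.44 over 16 alternatives and was called in 9, and that of PFKFB3 from −0.54 to −0.08 and was called in 8. These calls include the fits with a lone HCT116 set. The cause of these shifts was not tested. The 2 arrays a group, and the arrays that lack epithelial markers, limit every comparison of the lines.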
